A study of Rattus norvegicus with 3 samples.

Results

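Nuclear transport receptors and Ran factors were followed in Rat1_Myc fibroblasts set against Rat1_vector fibroblasts, both kept without serum for 12 h. Rat1 is an established rat fibroblast line, and the vector cells carry no added Myc, the growth-driving transcription factor. Proteins were chosen by entry name: every entry that Swiss-Prot calls IMB1, IMB2, IMB3, NTF2, RANG or RAN, of any species. Of these 6 names, 4 were found, IMB2, IMB3, NTF2 and RANG. They gave 5 entries among the 1227 that the tables of 3 fractions hold, with 4 in the soluble table, 0 in the chromatin table and 1 in the crude mitochondrial table. No entry named IMB1 or RAN was in the tables used here. Entries that carry a database number in place of a name could not be matched this way. A missing name therefore does not show that the protein was not detected. All 5 entries had a protein ratio, so no member was lost to missing values.

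Proteins above the size that diffuses freely cross the nuclear pore on transport receptors. Importin-beta type receptors bind cargo in the cytoplasm and let go of it in the nucleus, where they meet the small GTPase Ran loaded with GTP. Ran then leaves with the receptor, gives up its GTP with the help of RanBP1 and its relatives, and is carried back as Ran-GDP by nuclear transport factor 2. Transportin (IMB2) is the receptor of many RNA-binding proteins, and importin 5 (IMB3, also RanBP5) carries ribosomal proteins and histones among other cargo. RanBP1 is the entry RANG. These readings of the entry names come from general knowledge. Of the 4 names, 1 was matched in the rat gene table, NTF2, a synonym of Nutf2.

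Each fraction was 1 mixture, in which vector protein carried the light and Myc protein the heavy isotope-coded affinity tag (ICAT) on cysteine. The soluble and chromatin mixtures held 2.5 mg of each protein and the mitochondrial mixture 250 ug. A ratio is abundance in Myc cells over abundance in vector cells, the ± is the deposited SD within the mixture, and no ratio has a replicate. The labels were not swapped, so reagent and cell line cannot be told apart, nor can a higher amount per cell and a shift between fractions. A protein is called higher here when its ratio was at least 1.5 and lay more than 2 deposited errors (SD over ratio) from 1 on the log scale. No test across samples exists and no p-value is given. The tables held 3608 soluble, 2386 chromatin and 789 mitochondrial peptide lines, and the median ratio of quantified proteins was 1.34, 1.24 and 1.15 in these fractions. As a check of the fractions, lamins had 0 soluble, 76 chromatin and 1 mitochondrial lines, and the cytosolic enzymes LDHM and G3P had 5, 0 and 0. Entries for cytochrome c oxidase and for ATP synthase alpha or beta numbered 0 in every table, the mitochondrial one included. The soluble table also held mitochondrial enzymes, among them mitochondrial malate dehydrogenase (MDHM_HUMAN) and mitochondrial aldehyde dehydrogenase (DHAM_MOUSE). The fibroblast markers vimentin, fibronectin and type I collagen had 0 soluble lines and were found in the other fractions.

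In the soluble fraction 3 of the 4 members were higher in Myc cells and 0 were lower. RanBP1, which helps Ran shed its GTP, stood at 2.43 ± 0.262 (RANG_HUMAN, log2 1.28). Nuclear transport factor 2, the carrier of Ran-GDP, stood at 2.955 ± 0.834 (NTF2_HUMAN, log2 1.56), and transportin at 3.18 ± 1.605 (IMB2_HUMAN, log2 1.67). Importin 5 did not pass the rule, at 0.954 ± 0.141 (IMB3_HUMAN, log2 -0.07). Of all 542 quantified soluble entries, 30.6% were higher by the same rule. Of the 168 with a deposited peptide number of at least 2, 33.3% were. With 4 entries, a count of 3 carries little weight beside such a background.

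The 3 higher members ranked 25 (IMB2_HUMAN), 29 (NTF2_HUMAN) and 64 (RANG_HUMAN) from the top of the 542 soluble ratios, and importin 5 ranked 402. Relative to the soluble median, NTF2_HUMAN stood at 2.20 (2.79 errors above it) and RANG_HUMAN at 1.81 (5.51 errors), and both kept the call. Transportin stood at 2.37, only 1.71 errors above the median, and lost it. That left 2 of 4 members higher relative to the median, where 12.9% of soluble entries were. Importin 5 lay 2.32 errors below the median at 0.710, a smaller fold than the rule requires. Set against importin 5, the ratio of RANG_HUMAN was 2.55-fold larger (5.12 combined errors apart), that of NTF2_HUMAN 3.10-fold (3.55 errors) and that of IMB2_HUMAN 3.33-fold (2.29 errors).

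**Figure D1:**
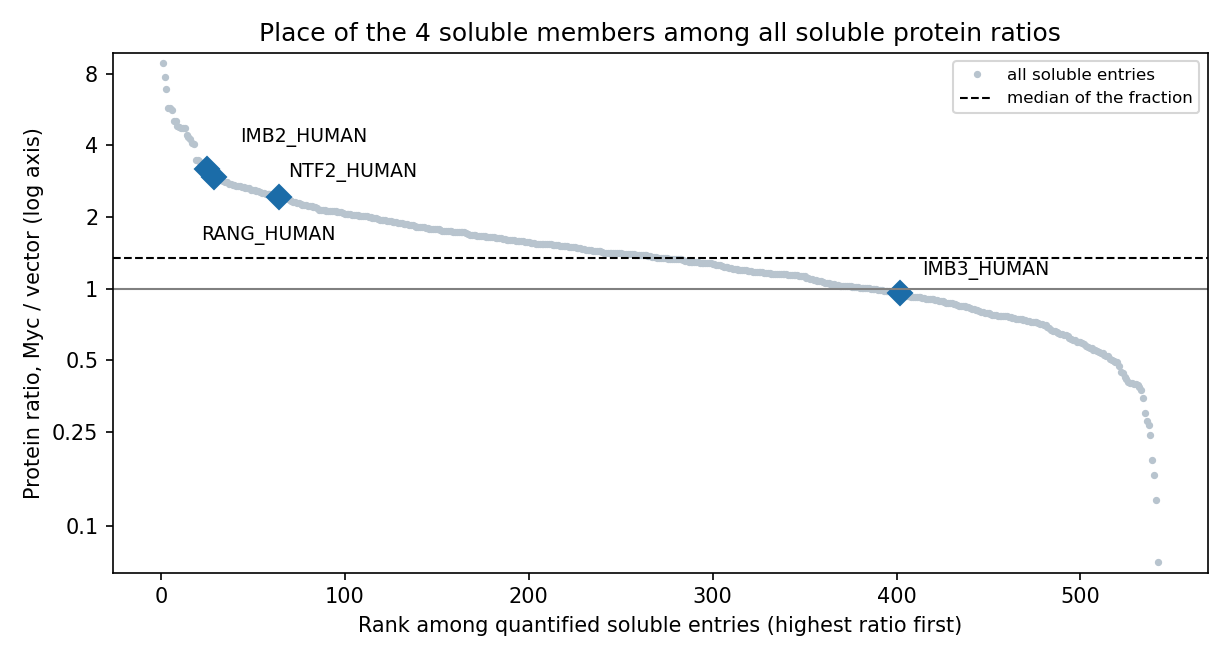
Protein ratio of Myc over vector (log axis) against rank for all 542 quantified soluble entries in grey, with the 4 members as blue diamonds and the median of the fraction as a dashed line. Transportin, nuclear transport factor 2 and RanBP1 lie among the 64 highest ratios, and importin 5 lies at rank 402, just below a ratio of 1.

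The peptide lines behind these ratios differed in number and in how well they matched each other. Soluble RanBP1 rested on 31 lines, of which 25 were measured. Nuclear transport factor 2 had 6 measured lines of 8, transportin 3 of 5, and importin 5 had 1 line. The other lines held the authors' codes for peaks not detected, of which RanBP1 had 6 (3 of 9999, 2 of -1 and 1 of 0), nuclear transport factor 2 had 1 each of 9999 and -1, and transportin had 1 each of 9999 and 0. Over all soluble lines 17.9% were coded. For each of the 5 entries, 0 entries outside the members held an identical peptide in any of the tables.

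All 25 measured lines of RanBP1 lay above 1. The lowest was 1.12, the median 2.44 and the highest 4.46, and their geometric mean of 2.29 was close to the deposited 2.43. The authors count 4 peptides, but all lines came from a single peptide sequence of 21 residues with 1 cysteine and 2 methionines, seen in 4 states of methionine oxidation. Over the soluble table, the deposited number of peptides equalled the number of such modified forms in 96.3% of entries and the number of distinct sequences in 88.0%. The ratio of RanBP1 is therefore a ratio of this peptide.

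With neither methionine oxidised, 10 RanBP1 lines ran from 1.12 to 4.46 around a median of 2.65. With the first oxidised, 12 lines ran from 1.51 to 3.05 around 2.22. The second oxidised alone gave 1 line at 2.49 ± 0.124, and both oxidised gave 2 lines, at 1.22 ± 0.074 and 2.63 ± 0.870. The forms overlapped throughout, and no form lay apart from the rest. The 2 highest lines, 4.46 ± 5.43 and 4.22 ± 5.40, had SDs larger than their ratios, as did the lines of 3.02 ± 3.28 and 2.95 ± 3.22.

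A line can be identified from the heavy tag, which the Myc protein carries, or from a cysteine without the heavy mark, read here as the light tag of the vector protein. The 16 RanBP1 lines identified by the heavy form had a median of 2.41 and ran from 1.22 to 4.22. The 9 identified by the light form had a median of 2.49 and ran from 1.12 to 4.46. These medians differed by less than the spread within either form, but the forms share values, so their closeness is partly built in. Of the 25 lines, 4 pairs shared both ratio and SD, each pair with a heavy and a light member, so that 21 distinct values remained. Some of these nearly repeat each other, such as 2.687 ± 1.005 and 2.688 ± 1.005, so separate measurements may be fewer. The lines are not 25 separate measurements. Their SD on the log2 scale was 0.50, against a median of 0.57 over the 165 soluble entries with at least 5 measured lines. Those entries can pool lines of several sequences, where RanBP1 has 1, so the 2 spreads are not of the same kind.

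**Figure D2:**
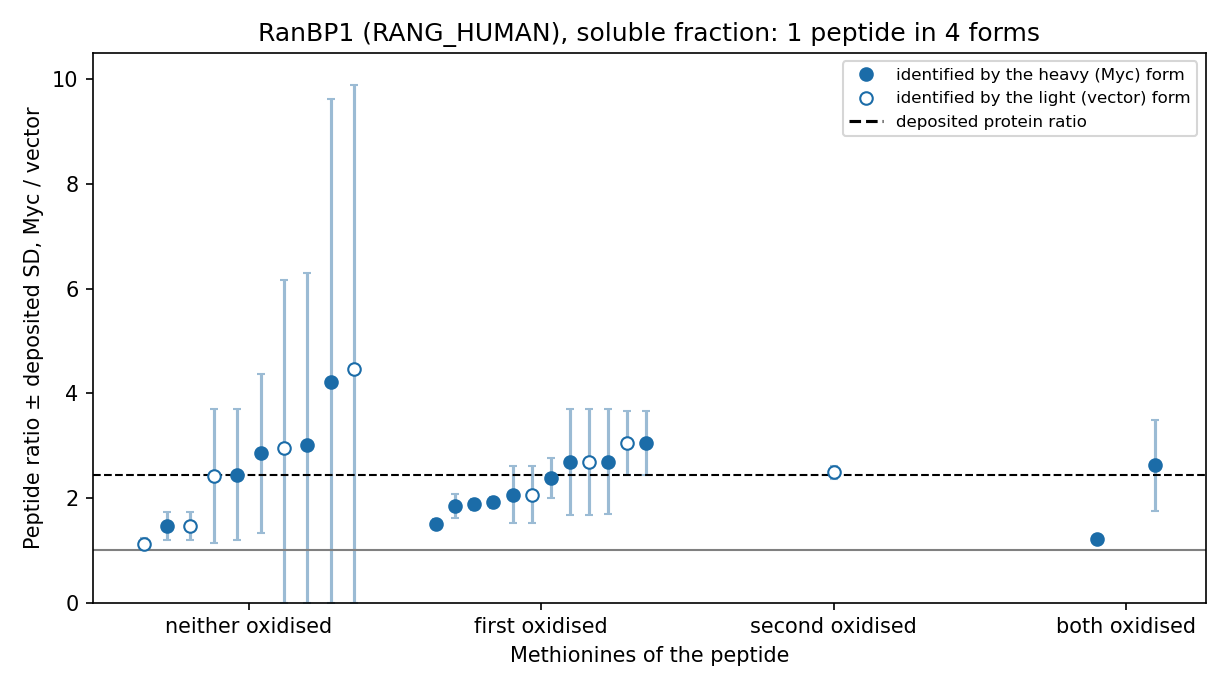
Ratio of each measured RanBP1 line in the soluble fraction (linear axis) with its deposited SD, cut at 0, by oxidation state of the 2 methionines; filled points were identified by the heavy form, open points by the light form, and the dashed line is the deposited protein ratio. All 25 lines lie above 1 (grey line), between 1.12 and 4.46, and the 4 forms overlap.

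Nuclear transport factor 2 was less uniform. Its 6 measured lines came from 3 peptides of 18, 24 and 27 residues that are nested in each other and share 1 cysteine and the same C-terminal end. The longest, which starts at a tryptic site, gave 0.764 ± 0.063, 1.92 ± 0.104 and 2.125 ± 0.183, and 1.34 ± 0.146 with its methionine oxidised. The shorter peptides do not start at a tryptic site. They gave 3.09 ± 0.125 (identification probability 0.762) and 3.16 ± 0.115 (probability 0.674). All 4 lines of the longest peptide thus lay below both lines of the shorter ones and below the deposited protein ratio of 2.955.

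By the geometric mean of its lines nuclear transport factor 2 stood at 1.86, with each distinct peptide counted once at 2.41, with lines weighted by their errors at 2.46, and with the lines of probability 0.9 or more alone at 1.46. All of these lie above 1 and below the deposited value, and the last lies below the 1.5 that the rule requires. The longest peptide alone stood at 1.43 by geometric mean, also below 1.5, and at 1.63 by median. The deposited ratio was 1.59-fold above the line mean. Such a gap of 1.5-fold or more, in either direction, was found in 35 of the 326 soluble entries with at least 2 measured lines (10.7%). The SD of the log2 lines, 0.78, was equalled or exceeded in 46 of the 165 soluble entries with at least 5 lines, its own included. Of the 6 lines 5 lay above 1.

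Of the members, transportin showed the widest gap between its peptides. A peptide of 24 residues gave 3.35 ± 0.094, and a peptide of 15 residues gave 0.754 ± 0.012 and 0.904 ± 0.079. The 2 peptides stood on opposite sides of 1, and all 5 transportin lines had identification probabilities of at least 0.965. The deposited protein ratio of 3.18 lay close to the first peptide, and its SD of 50.5% was far above the SDs of single lines, 1.59 to 8.74%. The gap between the peptides was 4.06-fold. Among the 84 soluble entries with exactly 2 measured peptides the median gap was 1.46-fold, and 5 entries, transportin included, reached 4.06-fold or more.

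The direction for transportin therefore depended on how its lines were joined. The median of its lines was 0.904, their geometric mean was 1.32, and with each peptide counted once it was 1.66. Without the line of 3.35 the mean was 0.826. The higher call for transportin rests on that line. By the geometric mean of measured lines, with no error rule, 2 of the 4 soluble members reached 1.5, and 39.1% of all soluble entries did.

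Importin 5 rested on a single line, identified by the heavy form with a probability of 0.999. Its peptide of 17 residues gave 0.954 ± 0.141, which is both the peptide and the protein ratio. Of the 542 soluble ratios, 374 had a deposited peptide number of 1, which can stand for more than 1 line.

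**Figure D3:**
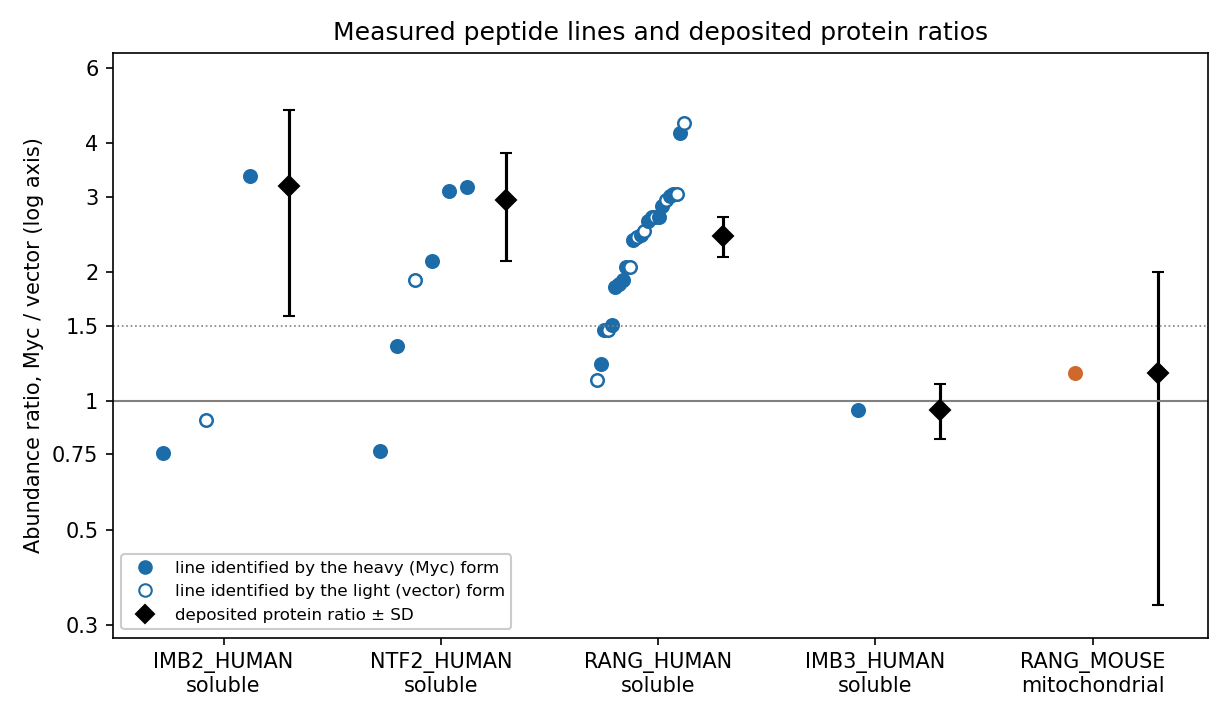
Ratio of Myc over vector (log axis) of every measured peptide line of the 5 entries, as circles (filled where identified by the heavy form, open by the light form), and the deposited protein ratio with its SD as a black diamond; the solid line marks 1 and the dotted line 1.5. The lines of RanBP1 all lie above 1, those of transportin split into 3.35 on 1 peptide and 0.754 and 0.904 on the other, and the mitochondrial line of RanBP1 (orange) lies at 1.165.

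Outside the soluble fraction, RanBP1 was the member measured, once, in the mitochondrial fraction. The entry was RANG_MOUSE, and its ratio of 1.165 ± 0.832 came from 1 line identified with a probability of 0.925. It did not pass the rule, which 10.9% of the 201 mitochondrial entries passed as higher, and lay at the median of that fraction (1.01 relative to it). The peptide was the same 21 residues as in the soluble entry RANG_HUMAN, with the first methionine oxidised, so the human and mouse suffixes stand for the same rat peptide. The 12 soluble lines of that same form all lay above it, from 1.51 up. The soluble ratio was 2.09-fold the mitochondrial one but lay within 1.02 combined errors of it, where the rule requires more than 2, and the SD of the mitochondrial line was 71.4% of its ratio.

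The other genes of the pathway came from a list of exportins, importin alphas, other importins, transportins, Ran regulators, nucleoporins, RNA export factors and lamins. It caught 6 entries in all, 1 soluble, 3 chromatin and 2 mitochondrial. They include LAM1_HUMAN, LAMA_HUMAN and LAMA_MOUSE, lamins of the nuclear lamina and not transport receptors or Ran factors. Of the 6 entries, 1 was higher and 0 were lower. By the same rule 30.6% of all soluble, 20.3% of chromatin and 10.9% of mitochondrial entries were higher. A count of 1 in 6 carries little weight beside these shares. CSE1, the exportin that returns importin alpha to the cytoplasm, was higher in the mitochondrial fraction, at 2.23 ± 0.718 on 1 line (CSE1_MOUSE, 2.49 errors from 1). It kept the call relative to the median of that fraction, at 2.05 errors above it. The share of all mitochondrial entries higher relative to that median was not computed. In the soluble fraction the same peptide of CSE1 gave 1.99 ± 1.27, 1.08 errors from 1, which did not pass. The soluble ratio was 0.893-fold the mitochondrial one, 0.159 combined errors apart. The values of CSE1 in these fractions differ less than their errors, and the call differs through the SD.

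In the chromatin fraction, where 20.3% of the 364 quantified entries were higher, 0 of the 3 listed entries passed in either direction. RBP2_HUMAN, read as RanBP2, a large nucleoporin of the cytoplasmic face of the pore that binds Ran, stood at 1.13 ± 0.112, with lines of 1.06 and 1.21. The rat gene table also uses RBP2 as the symbol of a different gene, so this reading rests on Swiss-Prot usage. Lamin B1 (LAM1_HUMAN), a filament protein of the nuclear lamina, stood at 1.06 ± 0.073 on 32 measured lines, and lamin A/C (LAMA_HUMAN) at 0.865 ± 0.380 on 40. The lines of lamin A/C had a median of 1.099, with 22 of 40 above 1. The median of the 3 was 1.06, below the median of 1.24 of all chromatin entries. Lamin A/C in the mitochondrial fraction stood at 1.16 ± 1.37 on 1 line (LAMA_MOUSE).

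**Figure D4:**
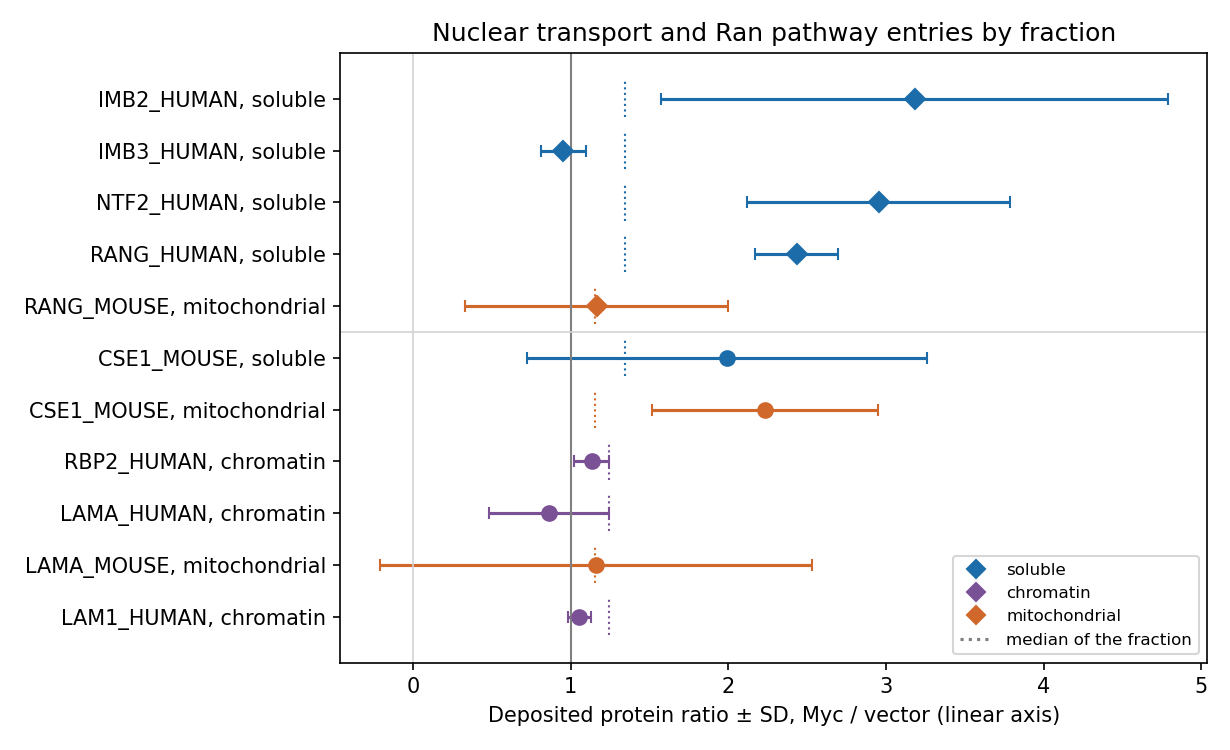
Deposited protein ratio of Myc over vector with its SD (linear axis), coloured by fraction, with the median of each fraction as a dotted mark. Diamonds above the grey divider are the 5 members. Circles are the 6 other entries of the pathway list, lamins included. The soluble ratios of IMB2_HUMAN, NTF2_HUMAN and RANG_HUMAN and the mitochondrial ratio of CSE1_MOUSE lie furthest above 1, and the 3 chromatin entries lie between 0.865 and 1.13.

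For each member, the entries of the same fraction with at least as many peptides and the closest ratio were taken as most alike. Likeness here is a distance between single log2 ratios and says nothing of function. For RANG_HUMAN the closest of 33 entries were IF5A_HUMAN, translation initiation factor 5A, at 2.43 ± 0.262, MDHM_HUMAN, mitochondrial malate dehydrogenase, at 2.37 ± 0.474, and DHAM_MOUSE, mitochondrial aldehyde dehydrogenase, at 2.30 ± 0.598. For NTF2_HUMAN they were the chaperonin subunit TCPG_HUMAN at 2.72 ± 0.772, elongation factor 2 (EF2_HUMAN) at 2.71 ± 0.689 and the chaperonin Hsp60 (CH60_HUMAN) at 2.57 ± 0.308. For IMB2_HUMAN, among 167, they were NTF2_HUMAN itself and the aldolase A entries ALFA_MOUSE (3.43 ± 1.075) and ALFA_HUMAN (2.94 ± 1.16).

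The closest named entries to IMB3_HUMAN were aldehyde dehydrogenase 7A1 (D7A1_MOUSE, 0.958 ± 0.163) and I-plastin (PLSI_HUMAN, 0.962 ± 0.108), and the other entry carried a database number only. The 3 closest to RANG_MOUSE in the mitochondrial table likewise carried numbers only. Over the soluble and mitochondrial ratios together, the named entries closest to RanBP1 among 103 names found in both tables were the chaperonin subunit TCPQ (2.465 soluble and 1.19 mitochondrial) and RSP4, the ribosomal protein also known as the laminin receptor (2.54 and 1.24). All neighbours named here differ from their member by 0.20 or less on the log2 scale.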

How the data were processed

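The members and lists were chosen with earlier results of these data known. Per the labels, the spectra were matched to NCBI proteins of rat, mouse and human, identifications were scored with PeptideProphet and ProteinProphet, and ASAPRatio gave peptide and protein ratios; their versions, and whether ratios were centred, are not given in the sources used here. Per the file legend, the deposited lines have a probability of 0.5 or more, linear ratios of Myc over vector, and the codes 0, 9999 and -1 for peaks not detected, which were left out as not measured. Protein ratio, SD and peptide number, deposited together as text, were split apart.

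Errors were taken as SD over ratio on the natural log scale, and log2 values were computed from the ratios. No mass spectra and no depth per ratio were used, and SDs cover spread within a mixture only. The call rule was checked on simulated data whose noise was drawn from the deposited errors of the soluble fraction. Errors above a fixed cap were lowered to it, so the noise was milder than deposited for some entries. That check cannot show whether the deposited errors are large enough. The genes named are all members, the whole pathway list and the 3 entries closest to each member. As alternatives, other folds, error rules, centring, probability and peptide minimums and other ways of joining lines were tried. No Swiss-Prot entry had a rat suffix (0), so peptides of rat cells stand under entries of other species or under database numbers. Peptide letters are not printed. Python 3.11.15, numpy 2.4.6, pandas 2.3.3 and matplotlib 3.10.9 were used.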

Additional observations from a re-analysis of the deposited data

Results flagged for a closer look

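Lamin A/C lay above 1 in the mitochondrial fraction (1.159 ± 1.369, LAMA_MOUSE) and below 1 in the chromatin fraction (0.865 ± 0.380, LAMA_HUMAN), opposite sides in single mixtures. The difference was not tested, and the mitochondrial SD is larger than its ratio. The chromatin side depends on how lines are joined: the 40 measured lines had a median of 1.099, with 22 above 1, and a geometric mean of 0.961, so by the median of lines both fractions lie above 1. RanBP1, the only member measured in 2 fractions, lay above 1 in both. Its mitochondrial ratio of 1.165 ± 0.832 came from 1 line and lay only 0.21 errors from 1.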

How the results depend on the processing

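The count of 3 higher soluble members was 3 with a fold of 2 or 1.3 and with no error rule. It was also 3 with a line of probability 0.9 or more and with at least 2 peptides. Those 2 settings kept the deposited ratios and peptide numbers, where RanBP1 counts 4 peptides from 1 sequence, so they do not show that the count is stable. The count was 2 with more than 3 errors, relative to the median, or by the line means. The count by line means was added after the data were seen. The mitochondrial count was 0 under each alternative run for it, and the chromatin table held no member. The pathway count was 1 with a fold of 2 and relative to the median, the only alternatives run for it. That count is CSE1_MOUSE in the mitochondrial fraction, on 1 peptide and 2.49 errors from 1. It would not pass with more than 3 errors or with at least 2 peptides. For transportin the median of lines was 0.904 and the mean without the farthest line 0.826, both below 1; other values were 1.66 with each peptide once, 1.32 with lines of probability 0.9 or more or each repeated value once, and 1.08 weighted by errors. For nuclear transport factor 2 the median of lines was 2.02; other values were 2.41 with each peptide once, 2.46 weighted by errors, 1.46 with lines of probability 0.9 or more, 2.22 without the farthest line, 1.86 with repeated values once, 1.43 with tryptic starts alone and 2.20 relative to the median. For RanBP1 the error-weighted mean was 1.82 and the value relative to the median 1.81; importin 5 stood at 0.710 relative to it. The line weighting by errors, repeated values, label forms and tryptic starts were added after the data were seen. No paired analysis was possible because each fraction is 1 mixture.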
